A study of Mus musculus with 12 samples.

Results

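The comparison described here set 3 TAC-operated hearts of *Fabp3*-null mice (F3-KO TAC) against 3 TAC-operated hearts of wild-type mice (WT TAC), which are 6 of the 12 hearts of the series. Hearts were placed in groups by their labels. The other 6 hearts were sham-operated, 3 of each genotype, and entered the fit to share 1 estimate of the spread between hearts. The labels give the C57BL/6 strain for both genotypes, with no substrain and no sex, and mice were operated at 8 weeks of age. Transverse aortic constriction (TAC) ties the aortic arch against a needle so that the left ventricle works against a higher pressure, and sham surgery leaves out the tie. Whole hearts were frozen 1 week after surgery and their total RNA was sequenced. The knockout was global, made with CRISPR-Cas9 and not limited to 1 cell type. The labels name each heart only by group and number, so the p-values below measure the spread between these samples.

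FABP3 is the fatty acid carrier of heart and muscle cells. Pressure overload is known to enlarge cardiomyocytes, to bring back fetal forms of contractile and natriuretic genes, to activate fibroblasts that lay down matrix, and to draw in monocytes and macrophages. Ion channel, calcium handling and adrenergic receptor genes set the electrical and contractile behaviour of the same cells. The groups below follow these roles, and lipid and glucose genes are left aside.

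*Fabp3* (gene ID 14077) matched the labels in every heart. Its level was 3064, 2887 and 2904 CPM in WT TAC and 1143, 1002 and 1014 CPM in F3-KO TAC, so the groups lay far apart and neither overlapped the other. The transcript fell in F3-KO TAC (log2 fold change -1.49, SE 0.15, edgeR adjusted p = 0.0015) but was still counted in every heart. Values are CPM, counts scaled to library size with the TMM method, in the order of replicates 1, 2 and 3, unless stated otherwise. Libraries held 10424334 to 14372011 estimated counts, and 3 counts correspond to 0.209 to 0.288 CPM. Among markers of the labelled tissue, *Tnni3*, the inhibitory troponin of cardiomyocytes, lay at 3158, 6191 and 5825 CPM in WT TAC and 3164, 2324 and 3998 CPM in F3-KO TAC.

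F3-KO TAC 2 and F3-KO TAC 3 stood apart from the other 10 hearts in genes of organs other than the heart. *Alb*, the serum albumin gene of the liver, had 846 and 1086 counts in these hearts, 1 count in F3-KO TAC 1 and 0 counts in the 9 hearts of the other groups. In all, 68 genes with at least 10 counts in both hearts followed *Alb*, meaning that both hearts exceeded the other 10 and that log2 CPM correlated with *Alb* at r of at least 0.9 over the 12 hearts. The list held apolipoprotein genes (*Apoa1*, *Apoa2*, *Apob*), the thyroxine carrier *Ttr*, the antiproteases *Serpina1b* and *Serpina1c*, the urinary protein gene *Mup10* and *Gm21320*. Of 36 hepatocyte markers, 28 were on it and 33 were higher in both hearts than in the other 10. The summed level of the 68 genes, scaled by library total, was 3.23 to 4.77 CPM in 10 hearts, 230.3 CPM in F3-KO TAC 2 and 356 CPM in F3-KO TAC 3, or 0.0230% and 0.0356% of all counts. The ratio of F3-KO TAC 3 to F3-KO TAC 2 had a median of 1.56 over the 68 genes (quartiles 1.34 and 1.89), and 62 were higher in F3-KO TAC 3.

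The same 2 hearts lacked a small lung signal that the other 10 shared. *Scgb1a1*, a secretory protein of airway cells, lay between 16.1 and 25.5 CPM of library total in 10 hearts and at 0 counts in both, a count that allows up to 0.209 and 0.239 CPM. *Sftpc* and *Sftpa1*, which encode surfactant proteins, lay at 5.94 to 10.1 and 1.11 to 2.14 CPM in the 10 hearts and also at 0 counts in the 2. *Bpifb1*, another airway gene, lay at 2.01 to 4.02 CPM in the 10 hearts and had 2 and 1 counts in the 2. The spread of *Scgb1a1* over those 10 hearts was small, with a coefficient of variation of 13.9%. The part of whatever separates these hearts in the results below was not tested, so counts are also given without them, from a fit in which F3-KO TAC 1, alone in its group, is assumed to vary like the other hearts.

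**Figure D1:**
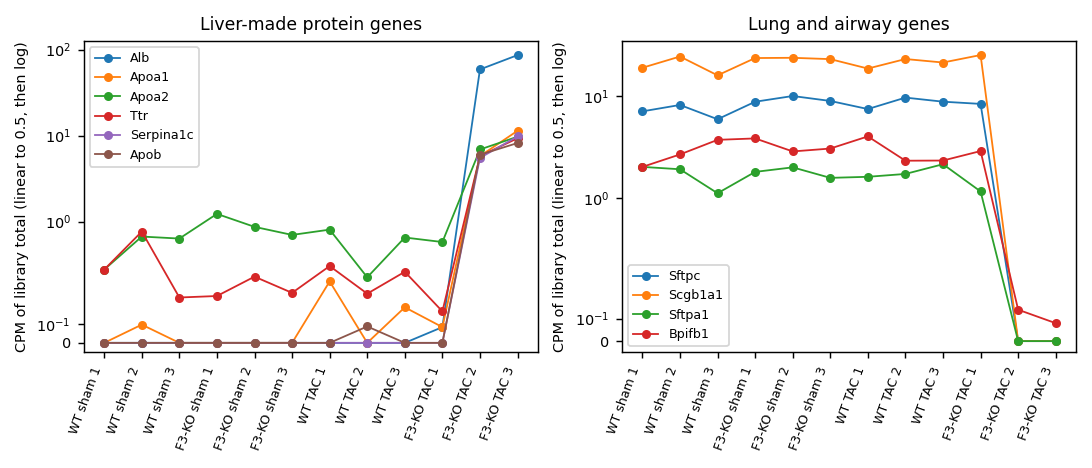
Level of 6 liver-made protein genes (left) and 4 lung and airway genes (right) in each of the 12 hearts, in CPM of the library total on an axis that is linear to 0.5 and logarithmic above; lines only join the points of 1 gene. F3-KO TAC 2 and F3-KO TAC 3 hold 58.9 and 86.4 CPM of *Alb* where 9 hearts hold 0, and they hold none of the 16.1 to 25.5 CPM of *Scgb1a1* in the other 10.

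Only 3 of the 68 genes passed the filter on low counts. These were the lipoprotein gene *Apoa2*, the protease inhibitor *Pzp* and the immunoglobulin transporter *Pigr*, the last 2 named after their values were seen, and edgeR called none of them. *Pzp* lay at 0.628, 0.705 and 0.5 CPM in WT TAC and 0.911, 3.96 and 6.52 CPM in F3-KO TAC (log2 fold change 2.61, SE 0.66, edgeR adjusted p = 0.33). *Pigr* lay at 0.863, 0.705 and 0.7 CPM in WT TAC and 0.987, 3.19 and 5.2 CPM in F3-KO TAC (log2 fold change 2.03, SE 0.56, edgeR adjusted p = 0.37). In both genes F3-KO TAC 1 was the F3-KO TAC heart closest to WT TAC. The hepatocyte marker *Cyp2e1*, an alcohol-inducible cytochrome, was tested too but is not one of the 68. DESeq2 called it, *Apoa2* and *Pzp*, and edgeR none of the 3. *Cyp2e1* lay at 0.941, 1.23 and 0.9 CPM in WT TAC and 2.35, 7.91 and 11.8 CPM in F3-KO TAC, with all F3-KO TAC hearts above all WT TAC hearts and F3-KO TAC 1 closest to them (log2 fold change 2.83, SE 0.64, edgeR adjusted p = 0.22). *Apoa2* lay at 0.784, 0.352 and 0.7 CPM in WT TAC and 0.531, 6.32 and 10.1 CPM in F3-KO TAC, where F3-KO TAC 1 fell within the WT TAC range (log2 fold change 3.18, SE 0.79, edgeR adjusted p = 0.31). With only F3-KO TAC 1 kept, the *Apoa2* log2 fold change was -0.20. These genes are set aside in what follows. Leaving out all *Alb*-following and hepatocyte genes kept the same 11 calls, none of which is such a gene. That fit keeps both hearts, so it cannot show what else separates them from the others.

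Of 19308 genes, 14094 were tested, and the quasi-likelihood test of edgeR called 11 of them (0.0780%) at a Benjamini-Hochberg adjusted p under 0.05, 4 higher (0.0284%) and 7 lower (0.0497%) in F3-KO TAC. A looser limit, an unadjusted p of 0.05 or less and called the nominal threshold below, held 1410 genes, 823 higher (5.84%) and 587 lower (4.16%). Groups did not overlap for 1607 genes (11.4%), with 888 higher (6.30%) and 719 lower (5.10%). Over all tested genes, 7487 had a positive and 6604 a negative fold change. These shares and counts are the background for every list below. Fits that left out hearts were filtered anew, so a list could have more or fewer tested members in them. Single hearts moved the counts. Without WT TAC 3 there were 6 calls, without F3-KO TAC 1 there were 21, without F3-KO TAC 3 there were 103 (0.718%), and with neither F3-KO TAC 2 nor 3 there were 3 (0.0205%). The unadjusted count was 848 without F3-KO TAC 2, 2249 without WT TAC 1 and 2670 without F3-KO TAC 3. Without WT TAC 1, 2 or 3, 1211, 637 and 626 genes were higher and 1038, 429 and 400 lower. Without F3-KO TAC 1, 2 or 3, 607, 479 and 1488 were higher and 418, 369 and 1182 lower. List counts that leave out 1 heart are to be read against these. As shares of tested genes, 3.35% were higher and 2.58% lower without F3-KO TAC 2, against 10.4% and 8.24% without F3-KO TAC 3. With neither heart the count was 1833, with 7.56% of tested genes higher and 4.97% lower. With no heart left out, DESeq2 called 101 genes (0.717%), including the 11. Of 933 tested genes on the lists below, edgeR called 1, limma 1 and DESeq2 17, 10 higher and 7 lower. Scaling by library totals alone turned the split from 823 higher and 587 lower to 1321 and 320, and moved the median log2 fold change of all genes from 0.02 to 0.12.

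**Figure D2:**
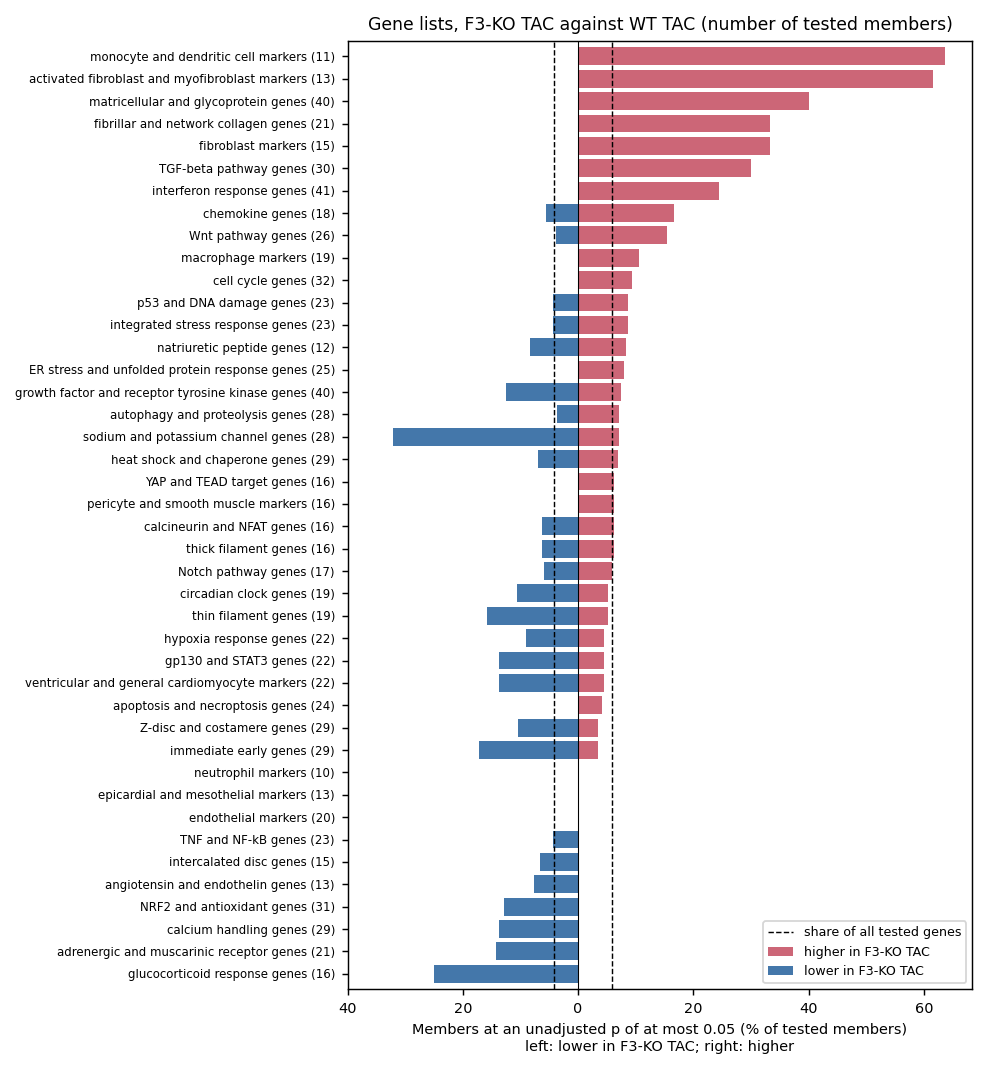
Share of the tested members of each gene list with at least 10 tested members past the nominal threshold, to the right for members higher and to the left for members lower in F3-KO TAC; dashed lines mark the shares over all tested genes, 5.84% and 4.16%. Monocyte and dendritic cell markers, activated fibroblast markers and matrix genes reach farthest to the right, and sodium and potassium channel genes farthest to the left.

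Contractile genes lay in both directions and none was called by edgeR. In bulk hearts, fewer cells of a type and less RNA per cell cannot be told apart. Among 29 Z-disc and costamere genes, 3 were lower and 1 higher at the nominal threshold, with a median log2 fold change of 0.005 that changed sign with DESeq2's size factors. With neither F3-KO TAC 2 nor 3, 3 were lower and 0 higher. *Tcap*, which encodes the telethonin cap that joins titin molecules at the Z-disc, lay at 1317, 1503 and 1267 CPM in WT TAC and 535, 595 and 779 CPM in F3-KO TAC. Every F3-KO TAC heart was lower than every WT TAC heart, and also lower than the sham range of 874 to 1585 CPM. Its difference (log2 fold change -1.10, SE 0.21, edgeR adjusted p = 0.11) passed the threshold with DESeq2, and with edgeR when F3-KO TAC 3 was left out (log2 fold change -1.27, edgeR adjusted p = 0.034). *Itgb1bp2*, the stretch-linked protein melusin, lay at 199, 261 and 238 CPM in WT TAC and 174, 139 and 168 CPM in F3-KO TAC, with no overlap (log2 fold change -0.54, SE 0.16, edgeR adjusted p = 0.41). *Itga7*, the laminin-binding integrin chain of muscle, was also lower in all 3 hearts, with 172, 194 and 171 CPM in WT TAC against 135, 139 and 104 CPM in F3-KO TAC (log2 fold change -0.51, SE 0.17, edgeR adjusted p = 0.46). The member higher in F3-KO TAC was *Ankrd23*, a titin-associated ankyrin repeat protein, at 619.5, 463 and 686 CPM in WT TAC and 826, 901 and 771 CPM in F3-KO TAC (log2 fold change 0.50, SE 0.21, edgeR adjusted p = 0.48).

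Of 19 thin filament genes, 3 were lower and 1 was higher at the nominal threshold, and the 2 Xin-repeat genes of this list went opposite ways. *Xirp2*, an actin-binding protein of the intercalated disc, lay at 771, 423 and 904 CPM in WT TAC and 1357, 2505 and 1173 CPM in F3-KO TAC. The 2 groups did not overlap, F3-KO TAC 2 was the highest heart of all, and the sham hearts lay at 301 to 519.8 CPM. The difference was not called by edgeR (log2 fold change 1.26, SE 0.33, edgeR adjusted p = 0.37) and was called by DESeq2. *Xirp1* was steady within each group, at 434, 437 and 425 CPM in WT TAC and 289, 301 and 331 CPM in F3-KO TAC, and lower in F3-KO TAC (log2 fold change -0.49, SE 0.15, edgeR adjusted p = 0.43). *Tpm1*, the main tropomyosin of cardiomyocytes, lay at 9767, 13521 and 11188 CPM in WT TAC and 8940.4, 7491 and 8077 CPM in F3-KO TAC, again without overlap (log2 fold change -0.49, SE 0.19, edgeR adjusted p = 0.47). Keeping F3-KO TAC 1 alone, 2 members were lower and 4 higher.

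Thick filament genes gave 1 member higher and 1 lower among 16 tested, and 0 and 4 with neither F3-KO TAC 2 nor 3. *Myh6*, the fast adult myosin heavy chain, lay at 25916, 34421 and 20411 CPM in WT TAC and 21214, 14448 and 15893 CPM in F3-KO TAC (log2 fold change -0.65, SE 0.29, edgeR adjusted p = 0.5). *Mybpc2*, the fast-type myosin binding protein C, lay at 90.9, 36.2 and 66.6 CPM in WT TAC and 79.1, 132 and 113 CPM in F3-KO TAC (log2 fold change 0.74, SE 0.32, edgeR adjusted p = 0.48). In both genes 1 heart of each group crossed into the range of the other. *Myh7*, the slow fetal myosin heavy chain, varied far more between hearts than between genotypes, at 4383, 1285 and 21579.9 CPM in WT TAC and 174, 8073 and 23126 CPM in F3-KO TAC. F3-KO TAC 1 held the lowest level of all 6 hearts, and both replicates numbered 3 the highest. Among 22 cardiomyocyte markers, 3 were lower and 1 higher, and the median was -0.30. *Tnni3* was 1 of the lower ones (log2 fold change -0.68, SE 0.27, edgeR adjusted p = 0.47), and *Corin*, the protease that activates natriuretic peptides, another, at 405, 219.6 and 336 CPM in WT TAC and 125, 182 and 287 CPM in F3-KO TAC (log2 fold change -0.69, SE 0.28, edgeR adjusted p = 0.47). The higher member was *Tbx20*, a cardiac transcription factor, at 87.1, 84.4 and 112 CPM in WT TAC and 129.6, 131 and 101 CPM in F3-KO TAC (log2 fold change 0.35, SE 0.15, edgeR adjusted p = 0.48).

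Sodium and potassium channel genes, with the pumps and their regulators, were lower in F3-KO TAC more often than the background. Of 28 tested, 9 (against 4.16% of all genes) were lower and 2 higher at the nominal threshold, 23 of 28 had a negative fold change, and the median was -0.36. None was called by edgeR, and DESeq2 called *Fxyd1* among the members named here. Like the lower count over all genes, given above, the count of 9 depended on single hearts. Leaving out WT TAC 1, 2 or 3 gave 10, 3 and 3, and leaving out F3-KO TAC 1, 2 or 3 gave 5, 2 and 9. Without both F3-KO TAC 2 and 3 it was 5. With library totals alone 7 were lower and 3 higher. *Kcnh2*, the pore of the rapid delayed rectifier that ends the action potential, lay at 115, 103 and 95 CPM in WT TAC and 62.7, 64.5 and 81.8 CPM in F3-KO TAC. All 3 F3-KO TAC hearts lay under every WT TAC heart and under the sham range of 88.7 to 139 CPM (log2 fold change -0.59, SE 0.16, edgeR adjusted p = 0.37). *Fxyd1*, phospholemman, which restrains the sodium pump, lay at 357, 408 and 453 CPM in WT TAC and 266, 292 and 303 CPM in F3-KO TAC, with the groups apart (log2 fold change -0.50, SE 0.14, edgeR adjusted p = 0.37). *Scn4b*, a sodium channel beta subunit and 1 of the members higher in F3-KO TAC, lay at 13.6, 19.99 and 12.8 CPM in WT TAC and 52.6, 16.1 and 33.2 CPM in F3-KO TAC, where F3-KO TAC 2 fell within the WT TAC range (log2 fold change 1.13, SE 0.40, edgeR adjusted p = 0.46).

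Calcium handling genes gave 4 lower and 0 higher members of 29 by edgeR, none of them called, and a median of -0.12. With library totals alone 3 were lower and 3 higher, and the median was -0.0091. *Camk2b*, a calmodulin-dependent kinase subunit, lay at 18, 21.1 and 17.1 CPM in WT TAC and 11.1, 9.06 and 7.34 CPM in F3-KO TAC. The groups were apart, and F3-KO TAC 3 was lowest (log2 fold change -1.03, SE 0.23, edgeR adjusted p = 0.22). DESeq2 called it. *Casq1*, the skeletal-type calsequestrin that stores calcium, lay at 14.1, 47.7 and 22.8 CPM in WT TAC and 11.3, 10.1 and 3.05 CPM in F3-KO TAC (log2 fold change -1.78, SE 0.60, edgeR adjusted p = 0.46). *Cacna1g*, a T-type calcium channel, lay at 20.7, 44.1 and 30.6 CPM in WT TAC and 16.9, 21.4 and 11.5 CPM in F3-KO TAC, with WT TAC 1 just inside the F3-KO TAC range (log2 fold change -0.93, SE 0.33, edgeR adjusted p = 0.46). *Atp2a2*, the calcium pump of the sarcoplasmic reticulum, lay at 7856, 12992 and 10946 CPM in WT TAC and 8815, 6996 and 8869.5 CPM in F3-KO TAC, with overlap and no call (log2 fold change -0.37, SE 0.25, edgeR adjusted p = 0.61). The count of lower members was 8, 1 and 4 without WT TAC 1, 2 or 3 and 3, 3 and 6 without F3-KO TAC 1, 2 or 3, and 3 with neither F3-KO TAC 2 nor 3.

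Among 21 genes of adrenergic and muscarinic signalling, 3 were lower and 0 higher at the nominal threshold by edgeR, and 6 had groups that did not overlap, all lower in F3-KO TAC (5.10% of all genes did so). *Adra1b*, an alpha-1 adrenergic receptor, lay at 33.2, 34.3 and 25.5 CPM in WT TAC and 16.2, 12 and 17 CPM in F3-KO TAC. Each F3-KO TAC heart was under each WT TAC heart and under the sham range of 19.4 to 47.5 CPM (log2 fold change -1.04, SE 0.23, edgeR adjusted p = 0.19). *Rgs2*, which switches off Gq signals from such receptors, lay at 29.97, 57.5 and 42.9 CPM in WT TAC and 18.7, 19 and 25.2 CPM in F3-KO TAC, again with no overlap (log2 fold change -1.05, SE 0.24, edgeR adjusted p = 0.22). *Chrm2*, the muscarinic receptor that slows the heart, lay at 174, 138 and 153 CPM in WT TAC and 96.2, 109 and 129 CPM in F3-KO TAC (log2 fold change -0.47, SE 0.19, edgeR adjusted p = 0.47). DESeq2 called *Adra1b* and *Rgs2*. The count of lower members was 3, 3 and 5 without WT TAC 1, 2 or 3 and 3, 2 and 6 without F3-KO TAC 1, 2 or 3, and 5 with neither F3-KO TAC 2 nor 3. Of 16 calcineurin and NFAT genes, *Rcan1*, a calcineurin target and inhibitor, was higher at 91.2, 82.3 and 105 CPM in WT TAC and 157, 249 and 110.3 CPM in F3-KO TAC (log2 fold change 0.89, SE 0.25, edgeR adjusted p = 0.37), and it was called without F3-KO TAC 3 (log2 fold change 1.13, edgeR adjusted p = 0.041). *Hdac5*, a class IIa deacetylase that holds back growth genes, was lower at 110.1, 104 and 107 CPM in WT TAC and 74.1, 86.1 and 91.1 CPM in F3-KO TAC (log2 fold change -0.36, SE 0.13, edgeR adjusted p = 0.46).

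**Figure D3:**
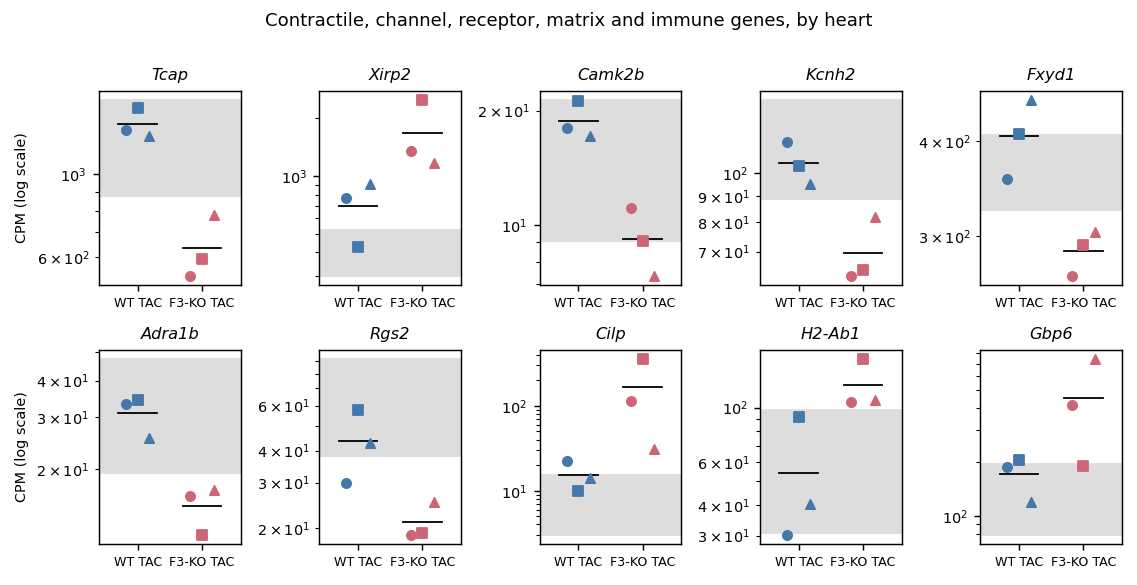
Level of 10 genes in each TAC heart, in TMM-scaled CPM on a logarithmic axis; circles, squares and triangles are replicates 1, 2 and 3, black bars are group means and grey bands the range of the 6 sham hearts. *Tcap*, *Camk2b*, *Kcnh2*, *Fxyd1*, *Adra1b* and *Rgs2* are lower in all 3 F3-KO TAC hearts, *Xirp2*, *Cilp* and *H2-Ab1* are higher, and *Gbp6* overlaps through F3-KO TAC 2. None of the 10 was called by edgeR.

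The usual markers of hypertrophy did not separate the genotypes. *Nppa*, the atrial natriuretic peptide, lay at 1114, 143 and 614 CPM in WT TAC and 153, 3841 and 1019.9 CPM in F3-KO TAC, with the lowest heart of each group close to the other (log2 fold change 1.42, SE 0.96, edgeR adjusted p = 0.61). *Nppb*, the B-type peptide, lay at 776, 411 and 589 CPM in WT TAC and 626, 647 and 584 CPM in F3-KO TAC, all above the sham range of 95 to 311 CPM and with no order by genotype (log2 fold change 0.063, SE 0.27, edgeR adjusted p = 0.95). *Acta1*, the skeletal actin re-expressed under load, lay at 3202, 762 and 799.99 CPM in WT TAC and 3564, 3566 and 3044 CPM in F3-KO TAC. The 3 F3-KO TAC hearts were close to each other, while WT TAC 1 was as high and the other 2 WT TAC hearts were near the top of the sham range of 44.9 to 753 CPM (log2 fold change 1.09, SE 0.63, edgeR adjusted p = 0.56). Of 12 natriuretic peptide genes, 1 was higher, the cyclic GMP-dependent kinase *Prkg1* at 27.6, 21.1 and 24.2 CPM in WT TAC and 33.4, 29 and 31.5 CPM in F3-KO TAC (log2 fold change 0.36, SE 0.15, edgeR adjusted p = 0.47), and 1 lower, *Corin*. F3-KO TAC 2, the highest heart in *Nppa*, was also highest in the atrial marker list. Of 8 tested atrial markers, 1 was higher and 2 were lower at the nominal threshold, none was called, and the mean log2 CPM, set to the WT TAC mean, was 0.03, -0.38 and 0.35 in WT TAC and -0.53, 1.25 and 0.083 in F3-KO TAC. The list sum, which includes *Nppa*, ran from 302 to 1252 CPM in WT TAC and from 263 to 3997 CPM in F3-KO TAC. The higher member was *Dkk3*, a secreted glycoprotein, at 5.1, 4.93 and 5.4 CPM in WT TAC and 5.84, 45.7 and 5.61 CPM in F3-KO TAC (log2 fold change 1.89, SE 0.74, edgeR adjusted p = 0.47). *Myl7*, the atrial myosin light chain and chosen after its values were seen, lay at 0.471, 0 and 1.5 CPM in WT TAC and 0.304, 8.55 and 0.577 CPM in F3-KO TAC, and F3-KO sham 2 was as high at 8.13 CPM. The lower members were *Tbx5*, a cardiac transcription factor, at 46.2, 35.5 and 24.5 CPM in WT TAC and 19.4, 20.4 and 31.5 CPM in F3-KO TAC (log2 fold change -0.58, SE 0.25, edgeR adjusted p = 0.48), and *Kcnj3*, a potassium channel that acetylcholine opens, at 48.1, 76.9 and 72.7 CPM in WT TAC and 46.1, 29.3 and 54.8 CPM in F3-KO TAC (log2 fold change -0.60, SE 0.26, edgeR adjusted p = 0.48). The list median of 0.51 became -0.38 without F3-KO TAC 2 and 1.27 without F3-KO TAC 3, where 9 members were tested. The part of atrial tissue in the *Nppa* levels was not tested. The WT TAC hearts differed among themselves as much as the genotypes did in *Nppa* and *Acta1*.

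**Figure D4:**
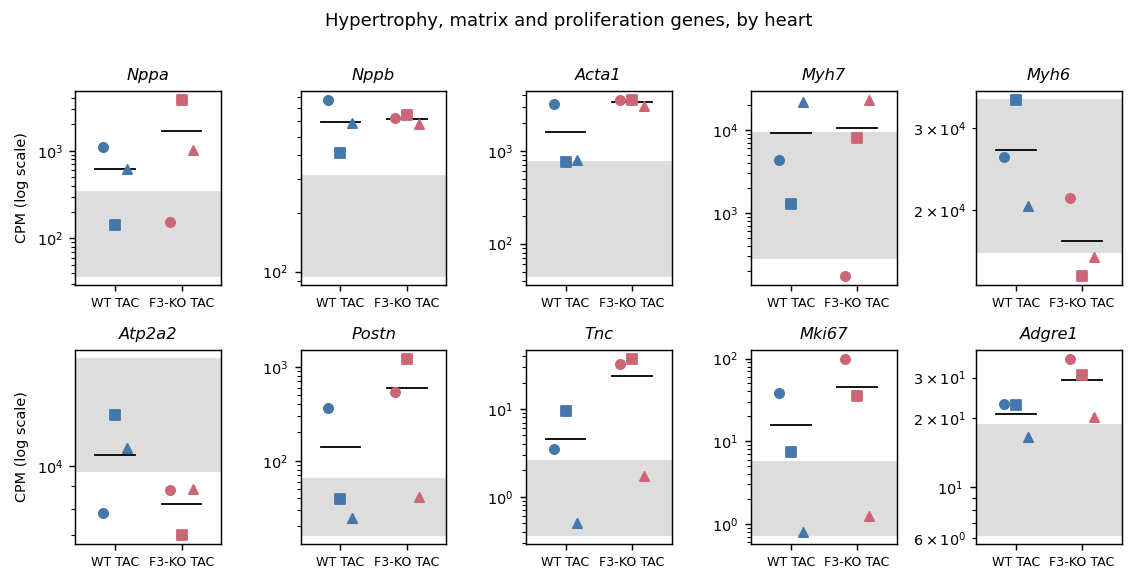
Level of 10 hypertrophy, calcium, matrix, proliferation and macrophage genes in each TAC heart, in TMM-scaled CPM on a logarithmic axis; circles, squares and triangles are replicates 1, 2 and 3, black bars are group means and grey bands the range of the 6 sham hearts. *Nppb* lies above the sham range in all 6 hearts, *Acta1* is high in all F3-KO TAC hearts and in WT TAC 1, and *Mki67* runs from 0.8 CPM in WT TAC 3 to 99.9 CPM in F3-KO TAC 1.

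No fibroblast or matrix gene of the lists was called by edgeR, and the members past the nominal threshold were all higher in F3-KO TAC. Of 15 fibroblast markers 5, of 13 activated fibroblast and myofibroblast markers 8, of 21 collagen genes 7 and of 40 matricellular and glycoprotein genes 16 were higher at the nominal threshold (5.84% of all genes), and 0 were lower. With neither F3-KO TAC 2 nor 3 the counts were 4, 4, 11 and 10. Medians were 0.56, 2.08, 1.25 and 0.95, against 0.02 over all genes, and each of the 21 collagen genes had a positive fold change. The higher counts depended on the tool. In the same order of lists, limma gave 2, 2, 3 and 8 at this threshold with all hearts, and DESeq2 5, 6, 6 and 14. Over all genes limma gave 741 higher. The mean log2 CPM of the activated fibroblast markers, set to the WT TAC mean, was 0.75, -0.13 and -0.62 in WT TAC and 1.28, 3.33 and -0.21 in F3-KO TAC. F3-KO TAC 2 was thus highest, F3-KO TAC 3 lay within the WT TAC range, and WT TAC 1 was the highest of its group. Leaving out WT TAC 1, 2 or 3 gave 10, 7 and 6, and leaving out F3-KO TAC 1, 2 or 3 gave 8, 1 and 12 of these markers. The corresponding counts of collagen genes were 18, 4 and 3 without WT TAC 1, 2 or 3 and 5, 1 and 19 without F3-KO TAC 1, 2 or 3. For matricellular genes they were 26, 8 and 8 without WT TAC 1, 2 or 3 and 14, 3 and 26 without F3-KO TAC 1, 2 or 3, and for fibroblast markers 6, 3 and 1 without WT TAC 1, 2 or 3 and 3, 1 and 9 without F3-KO TAC 1, 2 or 3. Without F3-KO TAC 3, 2 fibroblast markers were lower. *Gsn*, the actin-severing protein gelsolin and the most abundant fibroblast marker, had a negative fold change. It lay at 754, 1104 and 1431 CPM in WT TAC and 653, 622 and 1455 CPM in F3-KO TAC, with overlap (log2 fold change -0.27, SE 0.34, edgeR adjusted p = 0.79), and its log2 fold change was -0.78 without F3-KO TAC 3.

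*Cilp*, a matrix protein that pressure-loaded fibroblasts secrete, had groups that did not overlap. It lay at 22.3, 9.86 and 14 CPM in WT TAC and 115, 360.5 and 31.2 CPM in F3-KO TAC, above the sham maximum of 15.4 CPM in each F3-KO TAC heart and in WT TAC 1 (log2 fold change 3.45, SE 0.70, edgeR adjusted p = 0.16). *Thbs1*, thrombospondin 1, which activates latent TGF-beta, lay at 12.6, 14.9 and 13.3 CPM in WT TAC and 71.6, 97.4 and 9.9 CPM in F3-KO TAC. F3-KO TAC 3 was under every WT TAC heart, and the other F3-KO TAC hearts were far above them (log2 fold change 2.13, SE 0.57, edgeR adjusted p = 0.37). *Vcan*, the proteoglycan versican, was also high in F3-KO TAC 1 and 2 alone, at 16.8, 16.5 and 10.7 CPM in WT TAC against 64.3, 59.6 and 12 CPM in F3-KO TAC (log2 fold change 1.63, SE 0.47, edgeR adjusted p = 0.38). So were *Col8a1*, a short-chain network collagen, at 50.8, 22.3 and 23.7 CPM in WT TAC against 156, 300.4 and 24.2 CPM in F3-KO TAC (log2 fold change 2.31, SE 0.66, edgeR adjusted p = 0.38), and *Meox1*, a transcription factor of activated fibroblasts, at 17.7, 20.1 and 13.4 CPM in WT TAC against 58.3, 84.1 and 7.92 CPM in F3-KO TAC (log2 fold change 1.55, SE 0.60, edgeR adjusted p = 0.47). DESeq2 called *Cilp* and *Thbs1*. Leaving out F3-KO TAC 3 brought all 5 past the threshold with edgeR, for example *Thbs1* (log2 fold change 2.63, edgeR adjusted p = 0.0015) and *Cilp* (log2 fold change 3.94, edgeR adjusted p = 0.0076). With F3-KO TAC 1 as the sole F3-KO TAC heart, *Thbs1* was 1 of 3 calls, with a log2 fold change of 2.39.

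In some matrix genes the difference lay in F3-KO TAC 2. *Comp*, cartilage oligomeric matrix protein, lay at 2.82, 2.55 and 2.9 CPM in WT TAC and 2.96, 72.9 and 2.47 CPM in F3-KO TAC (log2 fold change 3.24, SE 1.04, edgeR adjusted p = 0.45) and had a log2 fold change of -0.032 without that heart. *Ltbp2*, a microfibril protein, lay at 12.6, 3.26 and 4.2 CPM in WT TAC and 19.1, 165 and 5.2 CPM in F3-KO TAC (log2 fold change 3.23, SE 0.99, edgeR adjusted p = 0.43). *Postn*, periostin, the classical product of activated fibroblasts, lay at 361, 39 and 24.4 CPM in WT TAC and 537, 1221 and 40.7 CPM in F3-KO TAC, with both replicates numbered 3 inside the sham range of 16.2 to 63.7 CPM (log2 fold change 2.08, SE 1.04, edgeR adjusted p = 0.52). *Ddr2*, a collagen receptor of fibroblasts, differed from these in that its groups were tight. It lay at 33.8, 28.1 and 30.1 CPM in WT TAC and 48.7, 44.8 and 41.8 CPM in F3-KO TAC, with no overlap (log2 fold change 0.56, SE 0.17, edgeR adjusted p = 0.41). *Lum*, the proteoglycan lumican, lay at 125, 77.6 and 77.3 CPM in WT TAC and 212, 271 and 74.2 CPM in F3-KO TAC (log2 fold change 1.00, SE 0.38, edgeR adjusted p = 0.47). *Tnc*, tenascin C, an early injury matrix protein, lay at 3.45, 9.6 and 0.5 CPM in WT TAC and 32.7, 37.4 and 1.73 CPM in F3-KO TAC (log2 fold change 2.40, SE 0.93, edgeR adjusted p = 0.47). *Ctgf*, connective tissue growth factor, was highest in WT TAC 1, at 654, 108 and 251 CPM in WT TAC and 181, 391 and 186 CPM in F3-KO TAC, and its log2 fold change of -0.42 became 0.49 without that heart.

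Of 30 TGF-beta pathway genes, 9 were higher and 0 lower at the nominal threshold. Leaving out WT TAC 1, 2 or 3 gave 10, 7 and 6, and leaving out F3-KO TAC 1, 2 or 3 gave 9, 2 and 13, and with neither F3-KO TAC 2 nor 3 the count was 7. With all hearts edgeR called none and DESeq2 called *Thbs1*. Besides *Thbs1* they included *Gdf15*, a stress-induced ligand, at 1.49, 1.67 and 1.2 CPM in WT TAC and 3.04, 14.5 and 1.9 CPM in F3-KO TAC (log2 fold change 2.16, SE 0.69, edgeR adjusted p = 0.45), and *Bambi*, a decoy receptor, at 11.8, 12.9 and 14.1 CPM in WT TAC and 22.2, 18.9 and 14.7 CPM in F3-KO TAC (log2 fold change 0.53, SE 0.18, edgeR adjusted p = 0.46). Of 26 Wnt pathway genes 4 were higher and 1 lower, and the higher count was 5, 3 and 2 without WT TAC 1, 2 or 3 and 7, 1 and 10 without F3-KO TAC 1, 2 or 3. *Wisp2*, a secreted Wnt target, lay at 18.3, 9.78 and 10.2 CPM in WT TAC and 23.8, 42.9 and 27.1 CPM in F3-KO TAC, with every F3-KO TAC heart above every WT TAC heart and above the sham maximum of 14.1 CPM (log2 fold change 1.29, SE 0.33, edgeR adjusted p = 0.33). DESeq2 called it. Growth factor and receptor genes split 3 higher and 5 lower of 40. *Fgf1*, a cardiomyocyte growth factor, was among the lower ones at 216, 292 and 276 CPM in WT TAC and 174, 200.01 and 201 CPM in F3-KO TAC (log2 fold change -0.45, SE 0.15, edgeR adjusted p = 0.46). Of 22 gp130 and STAT3 genes, 1 was higher and 3 were lower, among them *Il11ra1*, the interleukin-11 receptor, at 93.2, 87 and 99.9 CPM in WT TAC and 53.7, 77.3 and 71.5 CPM in F3-KO TAC (log2 fold change -0.47, SE 0.13, edgeR adjusted p = 0.38).

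The monocyte and dendritic cell list, which holds genes of MHC class II, had more members past the nominal threshold than the background, all of them higher in F3-KO TAC. Class II molecules display peptides on macrophages, dendritic cells and B cells, and CIITA is the switch for their genes. Of 11 tested monocyte and dendritic cell markers, 7 were higher and 0 lower at the nominal threshold (5.84% of all genes higher), none was called by edgeR or DESeq2, and the median was 1.11. *H2-Ab1* lay at 30.2, 91.8 and 40.4 CPM in WT TAC and 105, 158 and 108 CPM in F3-KO TAC. No WT TAC heart reached the F3-KO TAC hearts, although WT TAC 2 came near (log2 fold change 1.19, SE 0.35, edgeR adjusted p = 0.4). *H2-Aa* ran in parallel, at 34.9, 113 and 49.7 CPM in WT TAC against 133, 206 and 126 CPM in F3-KO TAC (log2 fold change 1.24, SE 0.38, edgeR adjusted p = 0.43). *H2-Eb1*, chosen after its values were seen, lay at 1.73, 4.05 and 2.4 CPM in WT TAC against 5.08, 8.74 and 3.79 CPM in F3-KO TAC, with WT TAC 2 above F3-KO TAC 3 (log2 fold change 1.11, SE 0.40, edgeR adjusted p = 0.47). *Cd74*, the invariant chain, lay at 111, 324 and 152 CPM in WT TAC and 356, 588 and 316 CPM in F3-KO TAC, with the same small overlap (log2 fold change 1.10, SE 0.38, edgeR adjusted p = 0.46). *Ciita* lay at 1.96, 3.79 and 1.2 CPM in WT TAC and 4.25, 5.55 and 9.15 CPM in F3-KO TAC (log2 fold change 1.44, SE 0.45, edgeR adjusted p = 0.44). *Ccr2*, the receptor of recruited monocytes, lay at 8.0, 4.93 and 3.1 CPM in WT TAC and 12.4, 24.8 and 7.84 CPM in F3-KO TAC, with F3-KO TAC 3 just under WT TAC 1 (log2 fold change 1.48, SE 0.45, edgeR adjusted p = 0.43). Leaving out WT TAC 1, 2 or 3 gave 5, 7 and 4, and leaving out F3-KO TAC 1, 2 or 3 gave 7, 3 and 9 of the markers, and with neither F3-KO TAC 2 nor 3 the count was 2.

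General macrophage markers differed less. Of 19 tested, 2 were higher and 0 lower, with a median of 0.27, and *Adgre1*, the F4/80 antigen, lay at 23.1, 22.9 and 16.6 CPM in WT TAC and 36.3, 30.9 and 20.3 CPM in F3-KO TAC (log2 fold change 0.48, SE 0.29, edgeR adjusted p = 0.58). T, NK and B cell markers had 0 of 5 tested members at the nominal threshold and neutrophil markers 0 of 10, with edgeR, DESeq2 and limma alike. For B cells, dendritic cells and macrophages alike, the source of the class II reads cannot be told apart in whole hearts.

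Interferon response genes leaned to higher levels, with F3-KO TAC 1 and 3 high and F3-KO TAC 2 low. Of 41 tested, 39 had a positive fold change, 10 were higher and 0 lower at the nominal threshold, and the median was 0.67. *Ifi208*, a gene of the interferon-inducible PYHIN family, was the sole called member of any list. It lay at 0.706, 1.06 and 1.1 CPM in WT TAC and 11, 4.02 and 8.17 CPM in F3-KO TAC, so that the lowest F3-KO TAC heart was above the highest WT TAC heart (log2 fold change 3.01, SE 0.42, edgeR adjusted p = 0.018). It belongs to a cluster of related family genes, so reads shared between copies could shift its count, and it was called in 3 of the 6 fits that left out 1 heart. *Gbp6*, a guanylate-binding protein that attacks intracellular pathogens, lay at 187, 204 and 121 CPM in WT TAC and 414, 189 and 749 CPM in F3-KO TAC, with F3-KO TAC 2 inside the WT TAC range (log2 fold change 1.40, SE 0.43, edgeR adjusted p = 0.42). *Iigp1*, an immunity-related GTPase, lay at 278, 247 and 83.5 CPM in WT TAC and 681, 74.4 and 864 CPM in F3-KO TAC (log2 fold change 1.41, SE 0.67, edgeR adjusted p = 0.51). *Zbp1*, a nucleic acid sensor, lay at 11.2, 7.84 and 3.9 CPM in WT TAC and 20.9, 6.38 and 31.2 CPM in F3-KO TAC (log2 fold change 1.33, SE 0.50, edgeR adjusted p = 0.47), and *Ifih1*, the RNA sensor MDA5, at 22.1, 16.6 and 15.5 CPM in WT TAC and 43, 19.5 and 31.2 CPM in F3-KO TAC (log2 fold change 0.79, SE 0.29, edgeR adjusted p = 0.47). In these 4 genes F3-KO TAC 1 and 3 were above every WT TAC heart, while F3-KO TAC 2 lay within or just under the WT TAC range. Leaving out WT TAC 1, 2 or 3 gave 16, 5 and 2, and leaving out F3-KO TAC 1, 2 or 3 gave 6, 26 and 6 of the 41 genes. With neither F3-KO TAC 2 nor 3 the list median was 1.02 over 42 tested members. *Cxcl9*, an interferon-gamma chemokine, showed the same order, at 15.2, 14.8 and 4.5 CPM in WT TAC against 33.3, 14 and 52 CPM in F3-KO TAC (log2 fold change 1.51, SE 0.47, edgeR adjusted p = 0.44).

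Promoters of several of these genes hold short motifs through which interferon-activated and class II factors are known to act. The 300 bases around the start, from 250 before to 50 after, are given 5′ to 3′ from RefSeq on GRCm38.p6 for 2 interferon genes and 2 class II genes that carry the motif. Capitals mark GAAA, any 2 bases and GAAA again, the core of the interferon-stimulated response element, or its reverse complement, in the first pair, and CTGATTGG, the Y box of class II genes, in the second. Both strands were searched. *Gbp3*, another guanylate-binding protein, was chosen after its values were seen.
Ifi208 (chr1:173673415-173673714, plus strand): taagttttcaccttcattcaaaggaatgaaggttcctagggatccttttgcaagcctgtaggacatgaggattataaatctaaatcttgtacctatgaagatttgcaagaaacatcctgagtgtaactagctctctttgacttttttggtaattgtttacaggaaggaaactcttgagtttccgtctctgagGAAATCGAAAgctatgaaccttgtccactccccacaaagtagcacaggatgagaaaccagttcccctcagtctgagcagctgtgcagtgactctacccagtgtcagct
Gbp3 (chr3:142559794-142560093, plus strand): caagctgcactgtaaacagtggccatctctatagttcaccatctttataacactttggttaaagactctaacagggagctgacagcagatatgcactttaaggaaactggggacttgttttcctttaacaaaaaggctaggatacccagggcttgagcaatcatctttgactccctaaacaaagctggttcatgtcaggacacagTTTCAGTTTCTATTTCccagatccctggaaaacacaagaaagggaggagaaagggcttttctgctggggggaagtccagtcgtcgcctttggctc
H2-Aa (chr17:34287774-34288073, minus strand): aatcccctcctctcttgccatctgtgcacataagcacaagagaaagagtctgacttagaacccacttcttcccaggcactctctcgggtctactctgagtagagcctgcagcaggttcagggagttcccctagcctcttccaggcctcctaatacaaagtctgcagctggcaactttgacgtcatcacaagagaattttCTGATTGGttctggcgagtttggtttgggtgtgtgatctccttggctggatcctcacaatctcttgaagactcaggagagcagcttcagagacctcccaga
H2-Eb1 (chr17:34305617-34305916, plus strand): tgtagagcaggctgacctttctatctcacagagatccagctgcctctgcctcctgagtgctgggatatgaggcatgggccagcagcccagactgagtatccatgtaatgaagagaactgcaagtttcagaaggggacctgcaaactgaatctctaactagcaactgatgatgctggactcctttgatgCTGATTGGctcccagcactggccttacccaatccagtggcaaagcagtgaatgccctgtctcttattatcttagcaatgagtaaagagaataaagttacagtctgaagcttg
The match lay 58 bases before the start in *Ifi208* and 51 and 62 bases before it in *H2-Aa* and *H2-Eb1*, while *Gbp3* held 2 overlapping matches at 45 and 39 bases before the start. *Gbp3* lay at 40.8, 31.2 and 15.3 CPM in WT TAC and 62.8, 22.1 and 146 CPM in F3-KO TAC, with F3-KO TAC 2 inside the WT TAC range, as for *Gbp6* (log2 fold change 1.40, SE 0.53, edgeR adjusted p = 0.47). Over 32851 mouse promoters of this length, 3.44% held the first motif, against 19 of the 30 tested interferon genes with a promoter in the table (63.3%) and 6 of 8 at the nominal threshold. The Y box was in 4.1% of all promoters and in 3 of 8 tested monocyte and dendritic cell markers. A listed gene counted if any of its promoters matched, while each of the 32851 promoters counted once, so the shares differ in unit. The interferon list holds genes known to respond to interferon, so its share does not describe these hearts. A match is a description of the sequence and says nothing of binding in these hearts.

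Red cell genes had a wide spread among the WT TAC hearts, and none was called. Of 9 tested, 5 were lower and 0 higher at the nominal threshold (4.16% of all genes lower), and each of the 9 had a negative fold change (median -1.88). DESeq2 also gave 5 lower, but limma gave 1. *Hbb-bs*, beta globin, lay at 1580.3, 774 and 119 CPM in WT TAC and 329, 322 and 132 CPM in F3-KO TAC, a gap between WT TAC 1 and WT TAC 3 wider than any between groups (log2 fold change -1.66, SE 0.77, edgeR adjusted p = 0.5). *Alas2*, the erythroid heme enzyme, ran in parallel, at 71.1, 31.1 and 3.2 CPM in WT TAC against 11.2, 11.9 and 4.7 CPM in F3-KO TAC (log2 fold change -1.92, SE 0.82, edgeR adjusted p = 0.48). *Bpgm*, the red cell enzyme that makes bisphosphoglycerate, had a smaller spread, at 32.6, 30.8 and 23.5 CPM in WT TAC and 20.2, 18 and 21.6 CPM in F3-KO TAC, with the groups apart (log2 fold change -0.54, SE 0.16, edgeR adjusted p = 0.4). Leaving out WT TAC 1, 2 or 3 gave 1, 3 and 9, and leaving out F3-KO TAC 1, 2 or 3 gave 3, 2 and 1, and with neither F3-KO TAC 2 nor 3 the count was 0. The part of blood left in each heart was not tested.

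Endothelial markers had 0 of 20 members at the nominal threshold and 0 calls with edgeR, DESeq2 and limma alike, and their median was -0.011. *Pecam1*, the endothelial adhesion molecule, lay at 325, 236 and 211 CPM in WT TAC and 307, 266 and 193 CPM in F3-KO TAC, so that the groups overlapped widely. Epicardial markers had 0 of 13 at the threshold with edgeR and limma and 1 with DESeq2, and pericyte and smooth muscle markers had 1 of 16 with edgeR. The medians of these 2 lists were 0.094 and 0.14, and with neither F3-KO TAC 2 nor 3 they were -0.95 and 0.48. Of 4 tested adipocyte markers, 1 was higher and 1 lower at the nominal threshold, with a median of -0.0090. The lower one was *Cidea*, a lipid droplet protein, at 42.2, 37.8 and 41.9 CPM in WT TAC and 24.8, 27.2 and 31.5 CPM in F3-KO TAC, with little spread in either group (log2 fold change -0.55, SE 0.13, edgeR adjusted p = 0.25). DESeq2 called it. Another marker, *Dio2*, was called higher by edgeR without F3-KO TAC 3 (log2 fold change 2.16, edgeR adjusted p = 0.049). The lung list, which holds the airway genes above, had 2 of 8 lower, and 0 with neither F3-KO TAC 2 nor 3. One of them was *Hopx*, a homeodomain protein that cardiomyocytes also express, at 142, 281 and 259.6 CPM in WT TAC and 144, 77.5 and 165 CPM in F3-KO TAC (log2 fold change -0.82, SE 0.28, edgeR adjusted p = 0.46).

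Most stress lists had few members past the nominal threshold with all hearts. Of 29 heat shock genes 2 were higher and 2 lower, of 25 ER stress genes 2 higher and 0 lower, of 23 integrated stress response genes 2 and 1, and of 23 p53 genes 2 and 1. Without F3-KO TAC 3 these lists gave 2 and 2, 5 and 2, 5 and 2, and 6 and 1 (10.4% and 8.24% of all genes). In that fit 4 of 24 apoptosis genes were higher and 1 lower, and 1 of 23 hypoxia genes was higher and 4 lower. With F3-KO TAC 1 alone in its group, the apoptosis median moved from 0.27 to 0.44 and the hypoxia median from -0.16 to -0.28. *Hspa1a*, the inducible HSP70, lay at 3.53, 4.49 and 5.0 CPM in WT TAC and 5.92, 4.72 and 3.79 CPM in F3-KO TAC, with no order by genotype. Of 24 apoptosis genes 1 was higher, the survival gene *Bcl2*, at 16.7, 12.9 and 13.8 CPM in WT TAC and 21.1, 24.4 and 21.6 CPM in F3-KO TAC, with the groups apart (log2 fold change 0.63, SE 0.13, edgeR adjusted p = 0.18). DESeq2 called it, and its log2 fold change in the sham hearts was 0.82. Of 22 hypoxia genes 1 was higher and 2 were lower. *Hif1a*, the oxygen-sensing factor, lay at 111, 90.8 and 103 CPM in WT TAC and 129, 164 and 118 CPM in F3-KO TAC (log2 fold change 0.43, SE 0.16, edgeR adjusted p = 0.47), while its targets *Ankrd37*, at 8.24, 3.61 and 7.0 CPM in WT TAC and 2.5, 3.57 and 2.06 CPM in F3-KO TAC (log2 fold change -1.20, SE 0.34, edgeR adjusted p = 0.37), and the lactate dehydrogenase gene *Ldha*, at 794, 736 and 786 CPM in WT TAC and 509.7, 644 and 630.4 CPM in F3-KO TAC (log2 fold change -0.38, SE 0.14, edgeR adjusted p = 0.47), were lower.

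Antioxidant genes gave 4 lower and 0 higher of 31 at the nominal threshold, and 4 lower and 2 higher with neither F3-KO TAC 2 nor 3. edgeR called none and DESeq2 called *Nnt*. *Nnt*, which encodes the mitochondrial transhydrogenase that regenerates NADPH, lay at 1040.2, 1352 and 1861 CPM in WT TAC and 427, 396 and 823 CPM in F3-KO TAC. Every F3-KO TAC heart was under every WT TAC heart (log2 fold change -1.37, SE 0.28, edgeR adjusted p = 0.16), and edgeR called it without F3-KO TAC 3 (log2 fold change -1.79, edgeR adjusted p = 0.012). The sham hearts showed the same split, with 1494, 1499.8 and 1765 CPM in the WT sham hearts and 650.2, 748 and 766 CPM in the F3-KO sham hearts. *Nnt* is known to be disrupted in the C57BL/6J substrain and the labels give no substrain, and the part of genetic background was not tested. *Prdx6*, a peroxiredoxin, was lower at 247, 282 and 274 CPM in WT TAC and 213, 186 and 207 CPM in F3-KO TAC (log2 fold change -0.41, SE 0.13, edgeR adjusted p = 0.45).

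Immediate early and glucocorticoid response genes at the nominal threshold were mostly lower in F3-KO TAC with all hearts, and this turned without single hearts. Of 29 immediate early genes, 5 were lower and 1 higher, or 2 and 1 with library totals alone. For 6 of them the groups did not overlap, all lower in F3-KO TAC (5.10% of all genes). The lower count was 5, 6 and 2 without WT TAC 1, 2 or 3 and 6, 3 and 2 without F3-KO TAC 1, 2 or 3, and the higher count 0, 1 and 0 without WT TAC 1, 2 or 3 and 0, 0 and 5 without F3-KO TAC 1, 2 or 3, so that without F3-KO TAC 3 more were higher than lower. Keeping F3-KO TAC 1 alone, the counts were 0 lower and 7 higher. *Zfp36*, an RNA-binding protein that shortens inflammatory messages, lay at 97, 76.9 and 64.8 CPM in WT TAC and 61.7, 50.3 and 51.6 CPM in F3-KO TAC (log2 fold change -0.55, SE 0.15, edgeR adjusted p = 0.37). *Btg2*, an antiproliferative gene, lay at 100.1, 82.5 and 95.9 CPM in WT TAC and 72.7, 65.2 and 45.9 CPM in F3-KO TAC, again without overlap (log2 fold change -0.60, SE 0.20, edgeR adjusted p = 0.46). *Fos* did not follow them, at 3.69, 3.88 and 4.5 CPM in WT TAC and 13, 4.34 and 2.23 CPM in F3-KO TAC, nor did *Egr1*, at 9.34, 23.5 and 22.1 CPM in WT TAC and 57.8, 30.4 and 10.2 CPM in F3-KO TAC. In both, F3-KO TAC 1 was highest and F3-KO TAC 3 fell in or under the WT TAC range. Of 16 glucocorticoid response genes, 4 were lower and 0 higher, and 15 had a negative fold change (median -0.40). With library totals alone 2 were lower and 0 higher. *Per1*, a clock gene that glucocorticoids induce, lay at 171, 137 and 119.7 CPM in WT TAC and 83.4, 101 and 111 CPM in F3-KO TAC (log2 fold change -0.53, SE 0.22, edgeR adjusted p = 0.47). The lower count was 0, 7 and 5 without WT TAC 1, 2 or 3 and 1, 0 and 7 without F3-KO TAC 1, 2 or 3, 2 were higher and the median was -0.023 without WT TAC 1, and the lower count was 4 with neither F3-KO TAC 2 nor 3. WT TAC 1 had the highest list mean of the 6 hearts. Of 23 TNF and NF-kB genes, 1 was lower and 0 higher, and without F3-KO TAC 3 the counts were 1 and 4. The lower member was *Nfkbia*, the NF-kB inhibitor, at 69.7, 74.2 and 68.1 CPM in WT TAC and 40.5, 41.3 and 61.5 CPM in F3-KO TAC (log2 fold change -0.57, SE 0.18, edgeR adjusted p = 0.46).

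Cell cycle genes all had a positive fold change, 32 of 32, yet 3 lay at the nominal threshold and none was called by edgeR or DESeq2. Their mean log2 CPM, set to the WT TAC mean, was 1.29, 0.12 and -1.42 in WT TAC and 2.29, 1.20 and -1.47 in F3-KO TAC. F3-KO TAC 3 and WT TAC 3 were alike and far under the other 4 hearts, so the spread within each group was wider than the median of 0.86. *Mki67*, the proliferation antigen, lay at 38.5, 7.49 and 0.8 CPM in WT TAC and 99.9, 35.2 and 1.24 CPM in F3-KO TAC (log2 fold change 1.53, SE 1.16, edgeR adjusted p = 0.65). *Mcm6*, a subunit of the replication helicase, lay at 9.1, 15.5 and 9.7 CPM in WT TAC and 39.2, 20.6 and 10.1 CPM in F3-KO TAC (log2 fold change 1.03, SE 0.38, edgeR adjusted p = 0.47). The count of members was 13, 6 and 0 without WT TAC 1, 2 or 3 and 0, 3 and 10 without F3-KO TAC 1, 2 or 3, and 17 with neither F3-KO TAC 2 nor 3. The list median was -0.087 without F3-KO TAC 1.

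**Figure D5:**
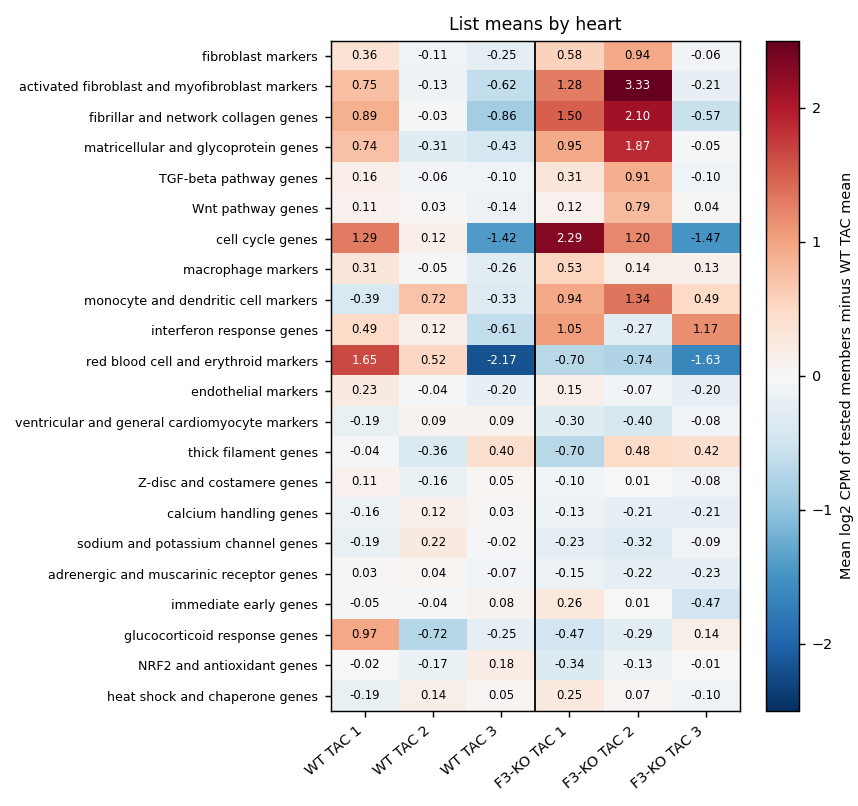
Mean log2 CPM of the tested members of 22 gene lists in each TAC heart, minus the mean of the 3 WT TAC hearts; red is above and blue below that mean. Collagen and cell cycle lists are lowest in WT TAC 3 and F3-KO TAC 3, while fibroblast and matricellular lists lie near the WT TAC mean in F3-KO TAC 3, at -0.061 and -0.054, activated fibroblast markers peak at 3.33 in F3-KO TAC 2, and the interferon list is high in F3-KO TAC 1 and 3, at 1.05 and 1.17.

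Most called genes lie outside these lists. *Wdfy1*, an endosomal adaptor of Toll-like receptor signalling, fell in all 3 F3-KO TAC hearts, with 46.4, 36.9 and 38.9 CPM in WT TAC and 19, 21.4 and 15.3 CPM in F3-KO TAC (log2 fold change -1.13, SE 0.14, edgeR adjusted p = 0.0073). *Cntnap5b*, a neurexin-family adhesion gene, fell to 30.4, 16.8 and 21.4 CPM from 50.5, 78.6 and 75.9 CPM (log2 fold change -1.58, SE 0.25, edgeR adjusted p = 0.049), under the sham range of 59.7 to 125 CPM. *Tmem181b-ps*, a pseudogene, fell, with 66.8, 76.1 and 92.6 CPM in WT TAC and 27, 32.8 and 30.02 CPM in F3-KO TAC (log2 fold change -1.39, SE 0.14, edgeR adjusted p = 0.0015). *Plac9b*, a member of a duplicated gene family, rose, with 5.49, 7.93 and 4.2 CPM in WT TAC and 22.1, 17 and 18 CPM in F3-KO TAC (log2 fold change 1.69, SE 0.23, edgeR adjusted p = 0.018). For these last 2 genes, reads shared with a related copy could move the count. In RefSeq on GRCm38.p6, *Plac9b* lies on chromosome 14 with *Plac9a* and *Gm9780* a few genes away, and *Gm9780* was also higher, at 1.26, 0.528 and 0.8 CPM in WT TAC and 4.1, 6.44 and 3.88 CPM in F3-KO TAC (log2 fold change 2.46, SE 0.48, edgeR adjusted p = 0.12). Leaving out 1 heart at a time, *Fabp3*, *Wdfy1*, *Tmem181b-ps*, *Ttc41* and *Rab4a*, which encodes a GTPase of endosome recycling, were called in 6 of 6 fits. *Plac9b* and the predicted gene *Gm21451* were called in 4, *Ifi208* and *Cntnap5b* in 3, and the predicted gene *Gm15446* and the unnamed locus BGIG10090_47737 in 1.

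The largest differences short of a call, with groups apart and an unadjusted p up to 0.01, included *Aqp8*, a water and peroxide channel, at 2.43, 1.59 and 1.2 CPM in WT TAC and 9.64, 8.68 and 8.66 CPM in F3-KO TAC (log2 fold change 2.35, SE 0.44, edgeR adjusted p = 0.095). DESeq2 called this gene and the next. All 3 F3-KO TAC hearts were close together and above the sham maximum of 3.89 CPM. *Abca4*, a lipid transporter, lay at 2.98, 12.4 and 7.3 CPM in WT TAC and 1.37, 1.98 and 1.65 CPM in F3-KO TAC (log2 fold change -2.17, SE 0.45, edgeR adjusted p = 0.16), with every F3-KO TAC heart under the sham minimum of 4.49 CPM. Some genes had no count in 1 group. *LOC100041599* was at 0 counts in each WT TAC heart and lay at 2.88, 4.78 and 7.67 CPM in F3-KO TAC, which is at least 19.2-fold higher against a floor of 3 counts per library. *Defb7*, a beta-defensin, was likewise at least 10.5-fold higher, at 2.28, 2.3 and 3.79 CPM. *Gm43828* was at 0 counts in F3-KO TAC and at 5.18, 1.67 and 0.5 CPM in WT TAC, at least 11.0-fold lower.

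The genotype difference after TAC was set against that after sham surgery by the interaction in the same fit. It called 0 of 14094 genes with edgeR, 6 with DESeq2 and 1 with limma, and 632 genes (4.48%) lay at the nominal threshold. With edgeR, no gene above is therefore shown to differ between TAC and sham in its genotype effect. Of the 11 genes called after TAC, 7 were also called between the sham groups, where 15 genes (0.106%) were called in all, and all 11 had the same sign in both. The 7 were *Fabp3*, with a log2 fold change after sham surgery of -1.21, *Rab4a* (-2.54), *Plac9b* (2.34), *Tmem181b-ps* (-1.26), *Ttc41* (-1.81), *Wdfy1* (-1.15) and BGIG10090_47737 (-2.35). The other 4, not called after sham surgery, had values of 2.12 for *Ifi208*, 2.09 for *Gm21451*, 1.49 for *Gm15446* and -0.43 for *Cntnap5b* (log2 difference -1.15, edgeR adjusted p = 0.95). For *Xirp2*, which edgeR did not call after TAC, the log2 fold change after sham surgery was -0.26 (log2 difference 1.52, edgeR adjusted p = 0.95) and for *Wisp2* -0.18 (log2 difference 1.47, edgeR adjusted p = 0.95). For *H2-Ab1* the log2 fold change was 1.00 after sham surgery and 1.19 after TAC, with 30.7, 44.8 and 50.7 CPM in the WT sham hearts and 67.5, 97.8 and 88 CPM in the F3-KO sham hearts. *Rgs2* and *Adra1b* had log2 fold changes after sham surgery of -0.75 and -0.70, in the same direction as after TAC.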

How the data were processed

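RNA from 12 whole mouse hearts was sequenced by the authors, who filtered reads with SOAPnuke, mapped them with HISAT2 2.0.4 and STAR 2.3.0 and tested genes with DESeq2. The submitters' processing notes name the builds mm8 and mm9 without roles, and the counting tool and annotation are not given in the sources used here. The deposited values are expected counts per gene, estimated by the authors. Of these values 40.6% were not whole, and they were rounded, which differs from the whole counts planned for.

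Genes were filtered with edgeR 4.0.16 (filterByExpr, minimum count 10), scaled with TMM and tested with the quasi-likelihood test over all 4 groups (8 residual degrees of freedom, R 4.3.3), with Benjamini-Hochberg adjustment over 14094 genes. The 5214 genes left out held 0.0773% of counts. CPM values use TMM-scaled library sizes, and log2 CPM a prior count of 2. DESeq2 1.42.0 and limma 3.58.1 were alternatives. On simulated data 44 of 100 genes changed by a log2 fold of 1 and 73 of 100 changed by 2 were recovered among 13928 genes in this comparison. With 3 hearts a group an exact permutation test cannot go below 0.1, so none was used. Floors are 3 counts per library and, like depth, cover counting error only.

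The members and gene lists were chosen with earlier results of these data known. Genes were named by rule, and 1 gene that the rule names is not reported here. These are *Fabp3*, the called genes, up to 4 members of each list with the lowest unadjusted p and a mean of at least 1 CPM, the most abundant member of a list, up to 8 *Alb*-following genes, up to 12 genes per direction with the largest fold change among those apart at an unadjusted p up to 0.01, and fixed landmarks. Symbols come from the deposited tables, in which 6 rows repeat a symbol, and 18225 of 19308 gene IDs matched RefSeq. Promoters are RefSeq's on GRCm38.p6, and no coordinates of the deposited files were used. Same-numbered hearts of the 2 TAC groups correlated in their deviations at 0.172, 0.061 and 0.362, so the numbers were not taken as pairs.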

Additional observations from a re-analysis of the deposited data

Results flagged for a closer look

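*Bambi*, the TGF-beta decoy receptor, was picked out because the genotypes were apart in opposite directions under TAC and sham. It lay at 11.8, 12.9 and 14.1 CPM in the WT TAC hearts and 22.2, 18.9 and 14.7 CPM in the F3-KO TAC hearts. In the sham hearts it lay at 18.1, 16.9 and 23.2 CPM in WT and 11.3, 13.1 and 11.6 CPM in F3-KO. The log2 fold change was 0.53 after TAC and -0.69 after sham surgery, a difference of 1.21 with an edgeR adjusted p of 0.95 over all genes.

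Outside the tested genes, 65 genes that the low-count filter removed followed *Alb* in F3-KO TAC 2 and F3-KO TAC 3. Of the 68 genes that followed it, 33 were at 0 counts in all 9 hearts of the other groups. Among tested genes, 295 (2.09%) were higher in these hearts than in each of the other 10.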

How the results depend on the processing

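The 11 calls became 101 with DESeq2, 17 without a filter, 0 with only the 6 TAC hearts (817 at the nominal threshold), 24 at an adjusted p under 0.1, 3 with neither F3-KO TAC 2 nor 3, and 6 to 103 when 1 heart was left out. The 1410 genes at the nominal threshold (unadjusted p of 0.05 or less) became 383 with a log2 fold change of at least 1 in size, 301 at an unadjusted p up to 0.01, and 848 to 2670 when 1 heart was left out. *Fabp3* missed the threshold with only the 6 TAC hearts (-1.51) and with neither F3-KO TAC 2 nor 3 (-1.37). The interaction gave 6 calls with DESeq2, 1 with limma and 0 to 4 when 1 heart was left out. Of tested genes, 3 followed *Alb*, against 23 at r of at least 0.8, 1 at 0.95 and 1 by Spearman's rho, and 68 whether tested or not. Other scalings, filters and limma gave 9 to 17 calls.

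A few named genes turned direction. When 1 heart was left out, log2 fold changes ran from -0.032 to 3.78 for *Comp*, -0.28 to 1.10 for *Fos*, -0.028 to 0.29 for *Hspa1a*, -1.14 to 1.88 for *Myh7*, -0.54 to 3.65 for *Myl7*, -0.095 to 2.14 for *Nppa*, -0.14 to 0.31 for *Nppb*, -0.17 to 0.19 for *Pecam1* and -0.89 to 0.49 for *Ctgf*. With neither F3-KO TAC 2 nor 3, *Apoa2* was at -0.20, *Myh7* at -5.71, *Myl7* at -1.05, *Nppa* at -2.03 and *Pecam1* at 0.25. *Myh7* was at -0.63 with limma and *Pecam1* at 0.092 with library totals. The cause was not tested. Of 54 list medians, 19 changed sign in some fit that left out 1 heart, and 5 with library totals alone. With the replicate number as a block, the calls were 8, of which 7 were shared with the 11, the unadjusted count was 1387 and *Myh7* was at -0.30. The fit with neither F3-KO TAC 2 nor 3 and the wider rule for *Alb* were added after seeing the data. Genes under a few counts per library could not be compared at this depth.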
